A study of Mus musculus with 6 samples.

Results

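Genes of the Wnt signalling pathway were compared between 2 culture conditions of mouse embryonic stem cells (mESCs) that carry no functional DNA methyltransferase. Members were the protein-coding genes whose GENCODE M21 symbol is that of a Wnt ligand, a Frizzled receptor, an Sfrp, Dkk or Notum inhibitor, an R-spondin or its Lgr receptor, an Axin, Nkd, Rnf43 or Znrf3 feedback inhibitor, or one of the transcription factors Tcf7, Tcf7l1, Tcf7l2, Lef1 and Sp5. This gave 56 of the 53390 genes with a transcript in the files. Poly(A) RNA of TKO mESCs, a line derived from male J1 cells with inactivated Dnmt1, Dnmt3a and Dnmt3b, had been sequenced with strand-specific libraries in 3 replicates of TKO-serum and 3 of TKO-2i. TKO-serum cells grew in DMEM with 15% FCS and LIF at 500 units per ml. TKO-2i cells were kept for 14 days in N2B27 medium with BSA, LIF at 1000 units per ml, 1 µM PD0325901 against MEK and 3 µM CHIR99021, which inhibits GSK3. All 6 libraries come from the same knockout line, so neither the genotype nor its effect was compared. The inhibitors, the basal medium, the serum and the LIF dose change together between the conditions and cannot be told apart. Libraries were run in pools on separate flow cells, and the labels do not say which pool held each, so a batch could not be checked.

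In canonical Wnt signalling a secreted Wnt protein binds a Frizzled receptor and an Lrp co-receptor. Without this signal, Axin, Apc, casein kinase and GSK3 mark β-catenin for degradation, and with it, or when GSK3 is inhibited, β-catenin accumulates and acts with TCF/LEF proteins at target genes. Several targets encode inhibitors of the pathway and so form a negative feedback. CHIR99021 acts below the ligands and receptors, and in mESCs GSK3 inhibition is known to favour self-renewal, in part by relieving repression by Tcf7l1.

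The libraries held 46228700, 44180642 and 43896549 estimated counts in TKO-2i and 38274042, 51932739 and 44827609 in TKO-serum. At this depth 3 counts correspond to 0.0564 to 0.0778 CPM (counts-per-million, a count relative to the TMM-scaled total of its library). CPM serve to compare 1 gene between libraries, while TPM, which also account for transcript length, serve to compare levels between genes. TKO-2i replicate 2 stood apart from the other libraries. Its median deviation from the mean of its condition was -0.10 on the log2 scale in the 3500 genes with the shortest transcripts and 0.07 in the 3499 with the longest, whereas the other 5 libraries lay between -0.04 and 0.06 in these genes. The labels call the replicates biological without saying whether they are separate cultures, so p-values measure the spread between these samples, which may be technical. Transcripts of the 3 inactivated genes were still counted. Dnmt1 had 149.6, 154 and 155 CPM in the TKO-2i libraries and 129, 129.6 and 129 CPM in the TKO-serum libraries. For Dnmt3a the values were 7.14, 7.46 and 7.36 CPM in the TKO-2i libraries and 30.2, 29.4 and 30.7 in TKO-serum, and for Dnmt3b 19.0, 20.3 and 20.6 CPM and 43.1, 42.3 and 44.0 CPM. These sums per gene do not check the genotype, since RNA from outside a deleted part is counted as well.

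Of the 56 members, 43 passed the filter on low counts and were tested. At an adjusted p under 0.05 in edgeR's quasi-likelihood test, 16 were higher and 18 lower in TKO-2i. Among all 18177 genes tested, 31.9% were called higher, 30.6% lower and 62.5% in either direction, against 79.1% of the tested members in either direction. With a change of at least 2-fold, 7 members were higher and 14 lower, against 7.72% and 15.6% of all genes tested. The median log2 fold change of the tested members was 0.04 and that of all genes tested 0.01, while the median absolute log2 fold change was 0.88 for the members and 0.44 for all genes. The libraries of the 2 conditions did not overlap for 35 of the 43 tested members (81.4%), against 67.5% of all genes tested. With 3 libraries against 3 an exact permutation test of a single gene cannot give a p below 0.1. Of the tested members 3 (Wnt5a, Wnt7b and Wnt10a) reached the filter's level, 0.225 CPM, in every TKO-serum library but not in every TKO-2i library, so their difference is tied to the filter. The same holds for Cthrc1, Fgf8 and Cubn among the other genes named, and in the opposite direction for Cdx1 and Cdx2. Without TKO-2i replicate 2, 46 members were tested, with 19 called higher and 20 lower. Calls over all genes rose in that fit as well, to 6328 higher and 6240 lower of 18710 tested. In the main fit they were 5804 and 5557 of 18177.

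**Figure D1:**
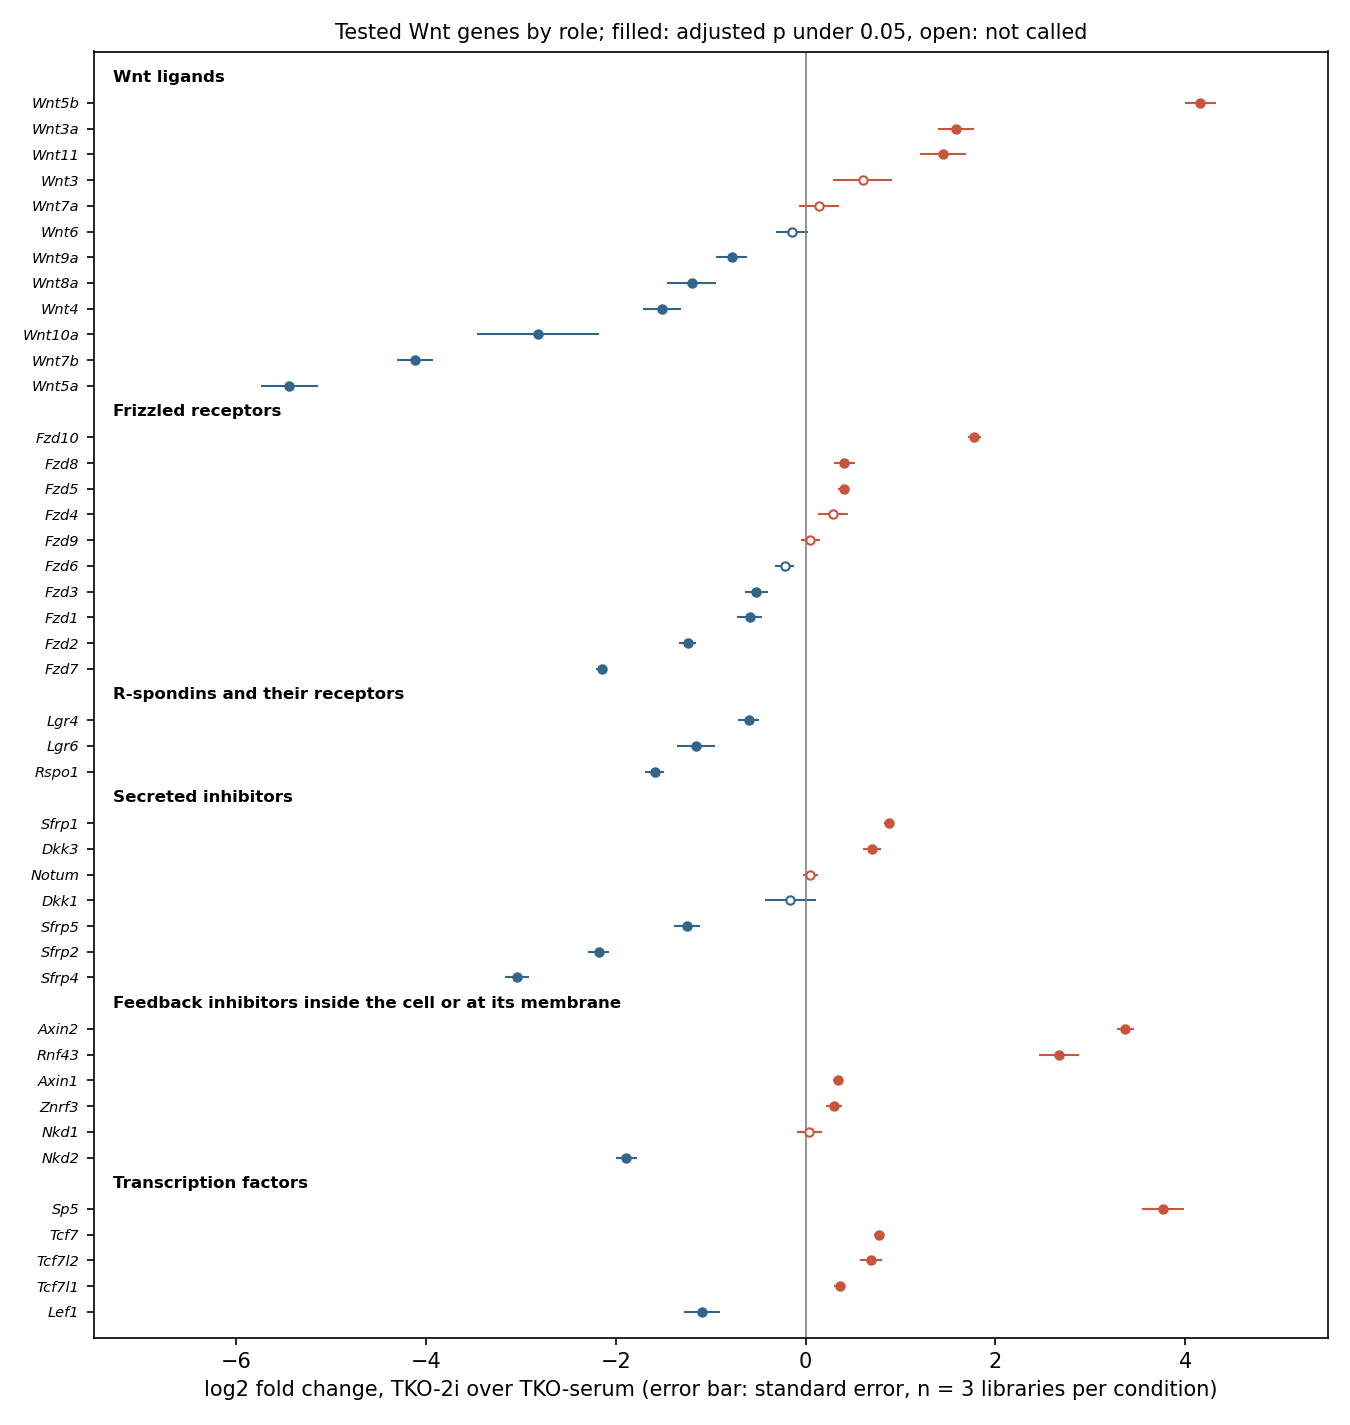
Log2 fold change of the 43 tested members, TKO-2i over TKO-serum, grouped by role, with the standard error as the bar (n = 3 libraries per condition). Filled points passed an adjusted p of 0.05 and open points did not, and each role except the R-spondins and their receptors holds genes on both sides of 0.

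Of the 19 Wnt ligands 12 were tested, with 3 called higher, 6 lower and 3 not called (75.0% called, against 62.5% of all genes tested). Among those called lower, Wnt5a, Wnt7b and Wnt10a passed the filter on low counts only through TKO-serum. The most abundant ligand in TKO-2i was Wnt5b (ENSMUSG00000030170; chr6:119432531-119544347), best known for signalling that does not use β-catenin. Wnt5b had 15.7, 11.8 and 15.5 CPM in the TKO-2i libraries and 0.907, 0.695 and 0.827 CPM in the TKO-serum libraries. It rose by 4.16 on the log2 scale (standard error 0.16, edgeR adjusted p = 2.3e-07), and every TKO-2i library lay far above every TKO-serum library. Wnt3a, a ligand of the canonical pathway, had 2.45, 2.89 and 2.02 CPM in TKO-2i, against 0.830, 0.921 and 0.675 in the TKO-serum libraries. Its log2 fold change was 1.59 (standard error 0.19, edgeR adjusted p = 0.00014), with no overlap between the conditions. Wnt11, which acts in cell movements of the early embryo and heart, had 1.43, 1.41 and 2.23 CPM in the TKO-2i libraries and 0.544, 0.658 and 0.631 in TKO-serum. It rose by 1.45 (standard error 0.24, edgeR adjusted p = 0.00074), and its highest value was that of TKO-2i replicate 3. Of the 64, 62 and 95 Wnt11 counts in TKO-2i, 36.8, 29.0 and 29.6 were assigned to a transcript annotated for nonsense-mediated decay. In TKO-serum this transcript had 0, 0 and 23.6, so the split varied widely between libraries.

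Wnt5a, the closest relative of Wnt5b, moved the other way. It had 0.0669, 0.0455 and 0.0235 CPM in TKO-2i, against 2.39, 1.90 and 2.05 in the TKO-serum libraries. The TKO-2i values stand for 6 counts in all, against 287 in TKO-serum, a ratio of 45.7 with a 95% Clopper-Pearson interval of 20.7 to 125 that covers counting error only. The fitted log2 fold change was -5.44 (standard error 0.30, edgeR adjusted p = 1.3e-06). Thus 1 of these paralogs was close to the limit of detection in each TKO-2i library, while the other exceeded 10 CPM there. Wnt7b had 0.290, 0.227 and 0.211 CPM in the TKO-2i libraries and 3.86, 4.83 and 4.13 in TKO-serum, with -4.12 as log2 fold change (standard error 0.19, edgeR adjusted p = 4.8e-07). As for Wnt5a, this p-value is tied to the filter, which Wnt7b passed only through TKO-serum. Wnt4, which is needed for kidney tubule formation, had 0.335, 0.409 and 0.446 CPM in TKO-2i, against 1.22, 1.15 and 1.04 in the TKO-serum libraries and fell by 1.51 on the log2 scale (edgeR adjusted p = 0.00023). In both genes each TKO-serum library was above all TKO-2i libraries.

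Below a 2-fold change or 1 CPM, Wnt9a (-0.78), Wnt8a (-1.20) and Wnt10a (-2.82) were also lower in TKO-2i by these log2 fold changes. The Wnt10a value ranged from -4.34 to -2.26 when a library was left out. Wnt10a had 5 counts in the TKO-2i libraries together and 39 in TKO-serum, a ratio of 7.44 with a 95% Clopper-Pearson interval of 2.93 to 24.2. Wnt3, Wnt7a and Wnt6 were not called, with log2 fold changes of 0.60, 0.14 and -0.14. Without TKO-2i replicate 2, Wnt3 had a log2 fold change of 0.80 and passed the threshold (edgeR adjusted p = 0.041). The other 7 ligands were not tested. Wnt16 reached 18 counts in a library at most, Wnt2b, Wnt8b and Wnt10b 8, Wnt2 6, Wnt9b 4 and Wnt1 2. Of 4 pairs of neighbouring ligand genes 2 had both genes tested. Wnt3a and Wnt9a lie 16175 bases apart on chromosome 11, and the former was higher and the latter lower in TKO-2i. Wnt6 and Wnt10a, 6193 bases apart on chromosome 1, had log2 fold changes of -0.14, not called, and -2.82.

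On the TPM scale the ligands together had 13.6, 13.0 and 14.1 TPM in the TKO-2i libraries and 8.06, 8.49 and 8.02 TPM in the TKO-serum libraries. Without Wnt5b the other 18 ligands summed to 5.48, 5.73 and 6.01 TPM in TKO-2i and to 7.54, 8.04 and 7.52 TPM in TKO-serum, so the higher sum in TKO-2i was that of Wnt5b alone. Wnt5b accounted for 57.6 ± 1.81% (SD, n = 3) of ligand TPM in TKO-2i and 5.96 ± 0.660% in TKO-serum. In TKO-serum the first place was held by Wnt7b, with 22.4 ± 1.53% against 0.671 ± 0.125% in TKO-2i. Wnt5a, Wnt6 and Wnt9a followed with 12.4 ± 1.58%, 11.8 ± 0.144% and 11.5 ± 0.531% in TKO-serum, shares whose ranges over the libraries touch or overlap.

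The 10 Frizzled receptors, which bind Wnt proteins at the cell surface, were all tested. Of these, 3 were called higher, 4 lower and 3 were not called, and the 70.0% called compare with 62.5% of all genes tested. Fzd10 (ENSMUSG00000081683; chr5:128600844-128604093) had 53.7, 50.3 and 58.0 CPM in the TKO-2i libraries and 16.5, 15.9 and 14.9 in TKO-serum. It was the only Frizzled gene called higher by at least 2-fold, with a log2 fold change of 1.78 (standard error 0.07, edgeR adjusted p = 2.5e-07). Fzd7 (ENSMUSG00000041075; chr1:59482424-59486955), a receptor described in pluripotent cells, had 12.5, 13.2 and 12.1 CPM in TKO-2i, against 54.7, 58.0 and 55.4 in the TKO-serum libraries. It fell by 2.15 on the log2 scale (standard error 0.06, edgeR adjusted p = 4.1e-08), with narrow ranges in both conditions that lay far apart. Fzd2 had 6.38, 5.30 and 5.30 CPM in the TKO-2i libraries and 13.4, 13.2 and 13.6 in TKO-serum, with -1.24 as log2 fold change (edgeR adjusted p = 6.5e-06). Its ranges did not overlap either.

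Among the smaller changes Fzd1 (-0.59) and Fzd3 (-0.52) were lower and Fzd8 (0.41) and Fzd5 (0.40) higher in TKO-2i on the log2 scale. The calls for Fzd8 and Fzd5 were lost when log2(TPM + 1) was tested with limma, where the log2 fold changes were 0.19 and 0.09. Fzd4 (0.29), Fzd9 (0.05) and Fzd6 (-0.22) were not called, although Fzd6 passed at -0.28 without TKO-2i replicate 2 (edgeR adjusted p = 0.029), at -0.26 with at least 10 counts in every library and at -0.25 with protein-coding genes only. Fzd5 was the most abundant Frizzled gene in both conditions, with 43.4 ± 1.83% of Frizzled TPM in TKO-2i and 39.1 ± 1.18% in TKO-serum. Behind it, Fzd10 with 30.4 ± 2.37% was second in TKO-2i and Fzd7 with 25.4 ± 0.711% in TKO-serum. The summed Frizzled level was 71.9, 85.8 and 72.8 TPM in the TKO-2i libraries and 76.8, 83.2 and 79.7 TPM in the TKO-serum libraries, and these ranges overlapped.

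**Figure D2:**
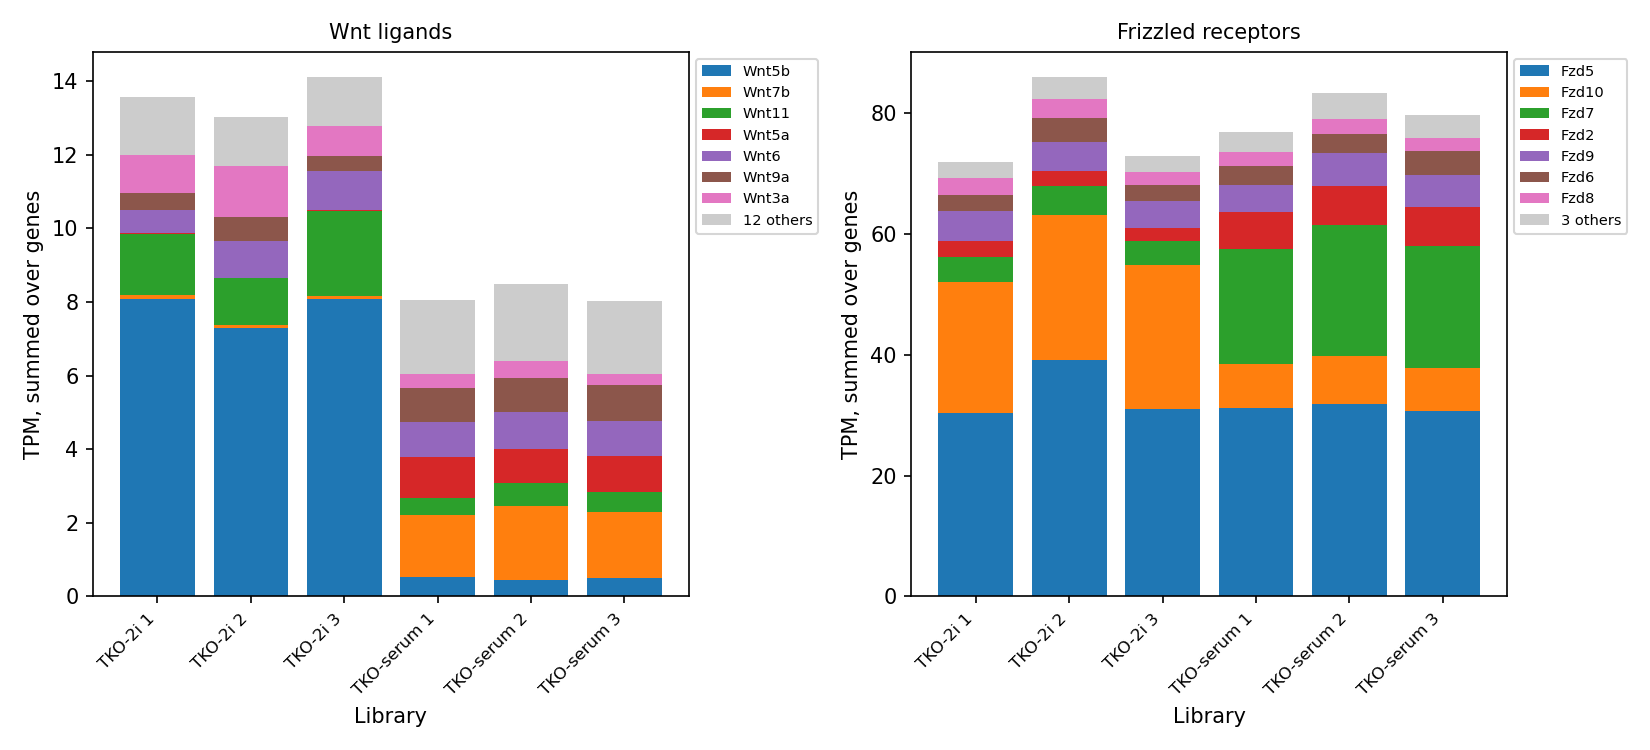
TPM of the Wnt ligands (left) and the Frizzled receptors (right) in each of the 6 libraries, stacked by gene, with the 7 genes of largest mean share shown by name. Wnt5b fills most of the ligand bar in every TKO-2i library, and the Fzd10 and Fzd7 segments exchange size between the conditions while the Frizzled totals overlap.

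R-spondins bind Lgr4, Lgr5 and Lgr6 and thereby keep Frizzled receptors on the cell surface. The 3 genes of this group that were tested were all called lower in TKO-2i, as were 30.6% of all genes tested. Rspo1 had 2.30, 2.32 and 2.25 CPM in TKO-2i, against 7.39, 6.33 and 6.96 in the TKO-serum libraries, with -1.59 as log2 fold change (standard error 0.10, edgeR adjusted p = 3.1e-06). Lgr4, the main Lgr gene of these cells, had 59.1, 79.9 and 66.7 CPM in the TKO-2i libraries and 97.6, 112 and 101 in TKO-serum, with TKO-2i replicate 2 the highest of its condition. It fell by 0.60 on the log2 scale (standard error 0.11, edgeR adjusted p = 0.0014). Lgr6 had 1.67, 1.02 and 0.985 CPM in TKO-2i, against 2.62, 2.71 and 2.85 in the TKO-serum libraries, with -1.15 as log2 fold change (edgeR adjusted p = 0.0012). The Lgr6 call was lost with counts made from length-scaled TPM, at -0.83 (edgeR adjusted p = 0.11), and with limma on log2(TPM + 0.1), at -0.93 (limma adjusted p = 0.051). Lgr5, the intestinal stem cell marker, was not tested and had at most 11 counts in a library, with sums of 25 counts in TKO-2i and 18 in TKO-serum. The highest counts of Rspo4, Rspo2 and Rspo3 were 20, 15 and 5, and for Rspo4 (6 against 47 counts) and Rspo2 (8 against 31) the sum over the TKO-2i libraries was the smaller.

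Secreted inhibitors bind Wnt proteins (Sfrp), block the Lrp co-receptors (Dkk1) or remove the lipid that Wnt proteins need (Notum). Of 9 such genes 7 were tested, with 2 called higher, 3 lower and 2 not called (71.4% called, against 62.5% of all genes tested). The Sfrp genes divided. Sfrp4 had 1.47, 2.25 and 2.09 CPM in the TKO-2i libraries and 16.1, 15.4 and 16.3 in TKO-serum, with -3.04 as log2 fold change (standard error 0.13, edgeR adjusted p = 4e-07). Sfrp2 had 1.72, 1.96 and 1.62 CPM in TKO-2i, against 7.88, 7.67 and 8.53 in the TKO-serum libraries and fell by 2.18 (standard error 0.11, edgeR adjusted p = 7.4e-07). For Sfrp5 the values were 2.43, 1.82 and 2.20 CPM in the TKO-2i libraries and 5.60, 4.51 and 5.35 in TKO-serum, with -1.25 as log2 fold change (edgeR adjusted p = 8.6e-05). In these 3 genes the conditions did not overlap. Sfrp1, in contrast, was higher in TKO-2i, at 89.5 ± 3.81 CPM (SD, n = 3) against 48.7 ± 1.01 CPM, with 0.88 as log2 fold change. Sfrp1 made up 86.7 ± 0.658% of Sfrp TPM in TKO-2i and 40.7 ± 1.24% in TKO-serum, where Sfrp4 held 31.9 ± 0.355%.

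Notum, in other tissues a target of the pathway it inhibits, was the most abundant secreted inhibitor by TPM in both conditions. It had 57.7, 48.0 and 60.2 CPM in TKO-2i, against 54.2, 51.6 and 54.6 in the TKO-serum libraries, with overlapping ranges and a log2 fold change of 0.05 (standard error 0.08, edgeR adjusted p = 0.64). Its sign depended on the unit, at -0.17 with limma on log2(TPM + 1), and without TKO-2i replicate 2 it passed at 0.15 (edgeR adjusted p = 0.023). Dkk3 was higher in TKO-2i by 0.70 on the log2 scale and Dkk1 was not called (-0.16). Dkk2 and Dkk4 had at most 2 counts in any library.

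Feedback inhibitors inside the cell or at its membrane held some of the largest rises. Axin2 (ENSMUSG00000000142; chr11:108920349-108950783), a scaffold of the β-catenin destruction complex and a widely used target of the pathway, had 118, 112 and 137 CPM in the TKO-2i libraries and 11.9, 11.9 and 11.7 in TKO-serum. It rose by 3.37 on the log2 scale (standard error 0.09, edgeR adjusted p = 3.6e-08). The lowest TKO-2i value was several times the highest TKO-serum value. Rnf43, a ubiquitin ligase that removes Frizzled receptors from the membrane, had 2.99, 2.86 and 2.56 CPM in TKO-2i, against 0.519, 0.301 and 0.522 in the TKO-serum libraries. Its log2 fold change was 2.67 (standard error 0.21, edgeR adjusted p = 1.1e-05), from a level under 1 CPM in each TKO-serum library. Znrf3, its paralog with the same activity, had 39.7, 50.1 and 44.7 CPM in the TKO-2i libraries and 35.7, 37.4 and 36.2 in TKO-serum. It changed far less, with a log2 fold change of 0.30 (standard error 0.08, edgeR adjusted p = 0.011).

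Axin1, which has the same function as Axin2 but is expressed without the feedback, had 109.8, 102 and 109 CPM in TKO-2i, against 83.7, 84.2 and 84.6 in the TKO-serum libraries. Its log2 fold change was 0.34 (standard error 0.05, edgeR adjusted p = 0.00048). The calls for Axin1 and Znrf3 were lost with limma on log2(TPM + 1), at 0.18 and 0.15. On the TPM scale Axin2 rose from 4.39 ± 0.590 TPM (SD, n = 3) in TKO-serum, below the 30.2 ± 3.55 TPM of Axin1, to 45.4 ± 3.09 TPM in TKO-2i, above the 34.3 ± 2.39 TPM of Axin1. The Nkd genes, whose products bind Dishevelled, differed from one another. Nkd2 had 1.76, 1.66 and 1.67 CPM in the TKO-2i libraries and 6.38, 5.79 and 6.72 in TKO-serum, with -1.89 as log2 fold change (standard error 0.11, edgeR adjusted p = 1.7e-06), with no overlap. Nkd1 had 3.06, 2.52 and 2.91 CPM in TKO-2i, against 2.52, 2.76 and 2.98 in the TKO-serum libraries and was not called, at 0.04 (standard error 0.13, edgeR adjusted p = 0.81).

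All 5 transcription factors were called, 4 of them higher in TKO-2i, against 62.5% called and 31.9% higher among all genes tested. Sp5 (ENSMUSG00000075304; chr2:70474923-70477729), a zinc finger factor induced directly by β-catenin that represses other Wnt targets, had 30.1, 21.6 and 38.0 CPM in the TKO-2i libraries and 2.05, 1.97 and 2.55 in TKO-serum. It rose by 3.77 on the log2 scale (standard error 0.22, edgeR adjusted p = 2.1e-06). The TKO-2i libraries varied, with replicate 3 the highest and replicate 2 the lowest, and all lay above TKO-serum. Tcf7, an activating partner of β-catenin in mESCs, had 113, 109.8 and 116 CPM in TKO-2i, against 64.8, 67.5 and 66.1 in the TKO-serum libraries, with 0.77 as log2 fold change (standard error 0.05, edgeR adjusted p = 4e-06). Tcf7l2 had 4.95, 5.27 and 4.90 CPM in the TKO-2i libraries and 2.67, 3.51 and 3.11 in TKO-serum and rose by 0.69 (standard error 0.12, edgeR adjusted p = 0.00098). Both genes were higher in each TKO-2i library than in any TKO-serum library.

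Tcf7l1, the main TCF repressor of pluripotency genes, had 138, 127 and 128 CPM in TKO-2i, against 104, 97.9 and 104 in the TKO-serum libraries, with 0.36 as log2 fold change (standard error 0.06, edgeR adjusted p = 0.00061). Less the median of its chromosome this value was -0.05. Lef1 was the exception in this group, with 3.99, 4.02 and 6.92 CPM in the TKO-2i libraries and 10.3, 10.6 and 10.7 in TKO-serum. It fell by 1.09 on the log2 scale (standard error 0.19, edgeR adjusted p = 0.0012). Its level in TKO-2i replicate 3 was above those of the other 2 TKO-2i libraries and still below TKO-serum. Of the TPM of the 4 TCF/LEF genes, Tcf7 made up 48.5 ± 1.06% in TKO-2i and 39.8 ± 0.818% in TKO-serum. The share of Tcf7l1 was 47.9 ± 1.44% in TKO-2i and 53.1 ± 1.05% in TKO-serum, and that of Lef1 1.71 ± 0.533% and 5.33 ± 0.144%. Tcf7 and Tcf7l1 thus had similar shares in TKO-2i, and Tcf7l1 was ahead in every TKO-serum library.

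Several of these genes lie on chromosomes whose genes were shifted as a whole. The median log2 fold change was 0.41 over the 866 tested genes of chromosome 6 and 0.26 over the 1399 of chromosome 11, and between -0.15 and 0.05 on the other autosomes and -0.07 on the X chromosome. Few genes were tested on the Y chromosome (0.28, 16 genes) and in the mitochondrial genome (0.12, 17 genes). After subtraction of the median of its chromosome, Tcf7l1 on chromosome 6 had a value of -0.05 and Znrf3 on chromosome 11 a value of 0.04. Larger changes kept their direction, with 3.75 for Wnt5b on chromosome 6 and 3.10, 2.40, 1.33 and 0.51 for Axin2, Rnf43, Wnt3a and Tcf7 on chromosome 11. Fzd2 and Wnt9a, lower in TKO-2i although on chromosome 11, had -1.51 and -1.04. The part of the shift of these chromosomes in the results was not tested.

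**Figure D3:**
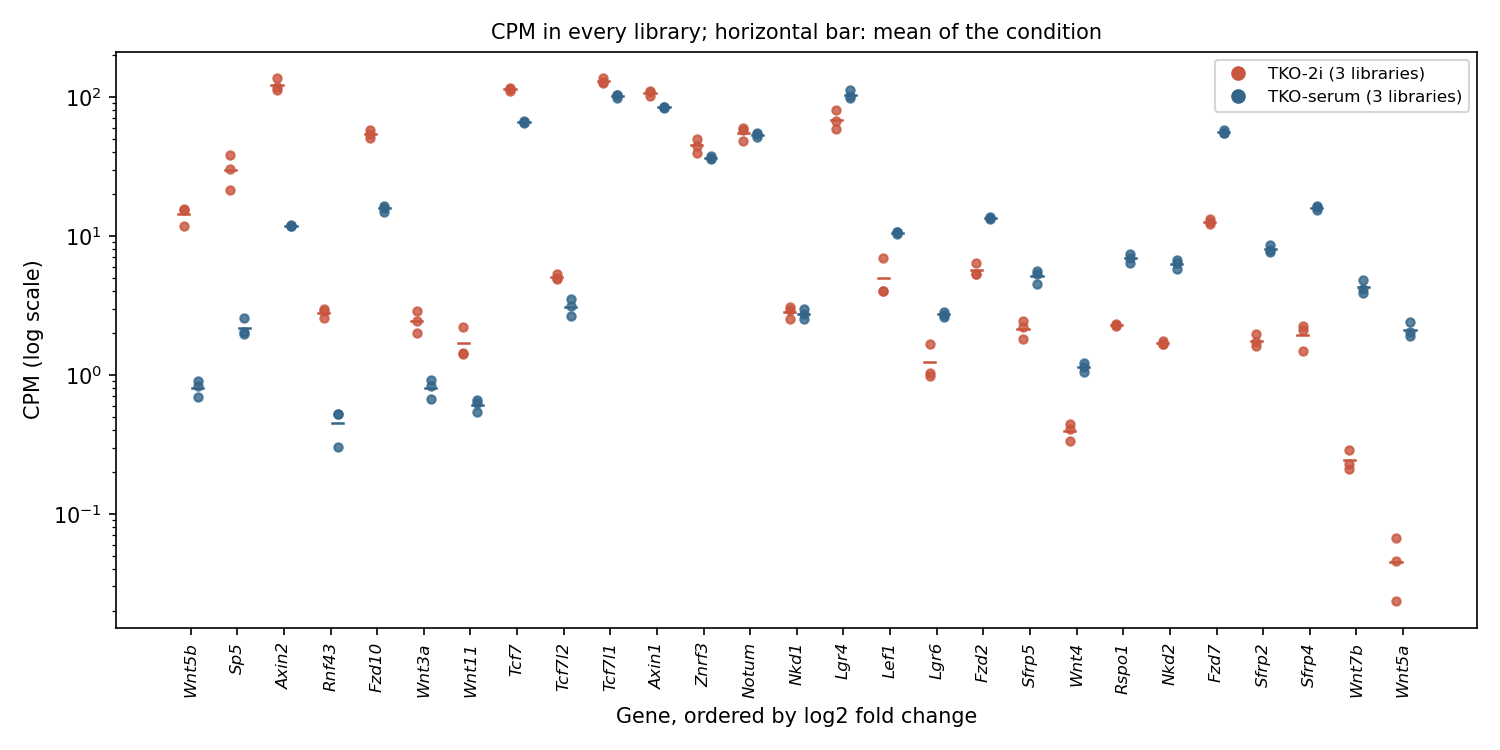
CPM, on a log axis, of 27 members in each of the 6 libraries, with a bar at the mean of each condition (n = 3), ordered by log2 fold change. The points of the conditions lie apart for Wnt5b, Sp5 and Axin2 at the left and for Sfrp4, Wnt7b and Wnt5a at the right, and they overlap for Notum and Nkd1.

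The deposited values are per transcript and were also read as shares of each gene. Of the members with a mean of at least 1 CPM, 22 had 2 or more transcripts with at least 10% of the gene's TPM in a library. Among their 73 transcripts, the shares did not overlap between the conditions for 9 (12.3%), from 7 genes. Over all 9224 genes chosen in the same way this share was 23.9%, higher than among the members. Wnt5b had 2 such transcripts. Its shorter transcript (chr6:119432531-119449386) held 88.4, 98.3 and 100% of Wnt5b TPM in the TKO-2i libraries, from 624, 512 and 660.0 estimated counts. In the TKO-serum libraries it held 0, 66.6 and 12.2%, from 0, 24.8 and 4.71 estimated counts. The longer transcript (chr6:119432534-119544318), which starts further upstream on the minus strand, held 11.6, 1.69 and 0% in TKO-2i and 100, 33.4 and 87.8% in TKO-serum. The TKO-serum shares rest on few counts and varied widely between libraries, so only the dominance of the shorter transcript in TKO-2i is well covered.

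Fzd5 had far more counts. Its lesser transcript (chr1:64734469-64737749) held 10.1, 10.4 and 9.40% of Fzd5 TPM in the TKO-2i libraries and 35.8, 25.6 and 28.9% in the TKO-serum libraries, from 285, 305 and 254 and 795, 718 and 709.9 estimated counts. The other (chr1:64730558-64737751) held the rest in every library, so the share of the lesser form was lower in each TKO-2i library. An Axin1 transcript (chr17:26138688-26195811) held 71.4, 66.4 and 68.0% of Axin1 TPM in TKO-2i and 62.4, 57.6 and 61.1% in TKO-serum. For Tcf7 the transcript shares overlapped between the conditions, with 68.3, 72.6 and 70.3% in TKO-2i and 69.9, 73.1 and 71.2% in TKO-serum for 1 of them (chr11:52252371-52282571). A Lef1 transcript (chr3:131112797-131224356) that starts downstream of the 2 other main ones held 33.0, 15.1 and 13.6% in TKO-2i and 27.1, 19.3 and 23.7% in TKO-serum, ranges that overlap. Transcripts of a gene share most of their reads, and their estimated split is less certain than the gene's sum.

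Promoter sequences were examined for letters that TCF/LEF proteins are known to bind. RefSeq windows of GRCm38.p6, from 250 bases before to 50 after a transcript start, were matched for 38 of the 56 members. Not matched were Axin1, Dkk3, Dkk4, Fzd2, Fzd3, Fzd6, Fzd8, Lgr5, Notum, Rspo2, Rspo3, Sfrp1, Sfrp4, Wnt10a, Wnt5a, Wnt7b, Wnt8a and Znrf3. The motif CTTTGAT was searched on both strands, along with CTTTGAA, and so were the variants CTTTGTT and, last, CTTTGTA. At least 1 match was present in 8 of the 47 windows of members (17.0%) and in 16.9% of all 32851 windows. By gene, 8 of 38 members had a match (21.1%), as had 18.9% of all 27025 genes with a window. These were 4 of 11 members called higher, 2 of 11 called lower, 2 of 7 not called and 0 of 9 not tested. A gene counts if any of its windows matches, and the members called higher had 17 windows, those called lower 14. The matched windows of Lef1 and Tcf7l2 lie inside these genes, downstream of their GENCODE starts. Of all genes tested with a window 14.3% had a match, 14.7% of those called higher and 14.8% of those called lower. With CTTTGAT and CTTTGAA alone a match was found in 3 of 11 members called higher and 0 of 11 called lower, against 7.76% and 7.19% of all genes tested and called so. Over the whole list this shorter set matched 4 of 38 members (10.5%), close to the 9.88% of all genes with a window. By window the shares were 8.51% for members and 8.65% for all windows. The single Axin2 window held none of these letters, which says nothing about regions outside it.

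Shown are the promoters of the 4 members with a match that had the largest absolute log2 fold changes, 3 of them higher in TKO-2i and Fzd7 lower. Each run is the 250 bases before the RefSeq start, 5′ to 3′ on the strand of the gene, with the motif matches of either strand in capitals. Those of Sp5, Wnt11 and Fzd7 overlap no GENCODE transcript. That of Wnt5b lies in an intron of longer Wnt5b transcripts and directly precedes the shorter transcript, which dominated in TKO-2i. The RefSeq start of Fzd7 is 277 bases upstream of the GENCODE start.
Sp5, chr2:70474673-70474922, plus strand: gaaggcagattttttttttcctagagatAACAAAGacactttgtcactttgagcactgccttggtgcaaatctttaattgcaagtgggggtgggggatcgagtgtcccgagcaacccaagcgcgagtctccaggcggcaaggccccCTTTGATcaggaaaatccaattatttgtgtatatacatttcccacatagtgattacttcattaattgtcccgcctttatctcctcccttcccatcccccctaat
Wnt5b, chr6:119449387-119449636, minus strand: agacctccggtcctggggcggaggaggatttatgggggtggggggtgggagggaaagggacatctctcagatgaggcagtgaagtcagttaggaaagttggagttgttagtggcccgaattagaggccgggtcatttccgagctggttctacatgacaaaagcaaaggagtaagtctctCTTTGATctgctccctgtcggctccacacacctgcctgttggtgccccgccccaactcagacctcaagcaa
Wnt11, chr7:98834862-98835111, plus strand: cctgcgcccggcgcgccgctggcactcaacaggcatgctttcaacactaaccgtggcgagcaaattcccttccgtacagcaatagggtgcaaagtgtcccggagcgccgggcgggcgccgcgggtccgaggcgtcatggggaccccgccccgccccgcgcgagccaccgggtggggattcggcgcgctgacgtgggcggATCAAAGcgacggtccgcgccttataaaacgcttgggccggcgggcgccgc
Fzd7, chr1:59481897-59482146, plus strand: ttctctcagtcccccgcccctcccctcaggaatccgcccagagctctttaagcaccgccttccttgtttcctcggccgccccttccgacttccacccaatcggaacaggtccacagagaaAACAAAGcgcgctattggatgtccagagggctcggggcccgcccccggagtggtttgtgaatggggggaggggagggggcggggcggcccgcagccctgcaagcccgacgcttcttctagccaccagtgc
Sp5 had a match to CTTTGTT on the other strand, 222 bases before the start, and a match to CTTTGAT on its own strand, 104 bases before it. Wnt5b had CTTTGAT 71 bases before the start on its own strand, and Wnt11 had it 51 bases before on the other strand. Fzd7, which fell, had CTTTGTT on the other strand 130 bases before the start, and no match to the shorter set.

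Of 50 other genes of the pathway, 47 were tested, with 19 called higher and 16 lower in TKO-2i (74.5% in either direction, against 62.5% of all genes tested). Their median log2 fold change was 0.10 and the median absolute value 0.37. Where called, Ctnnb1, Gsk3b, Lrp5, Dvl2 and Dvl3 changed by less than 2-fold. Ctnnb1, which encodes β-catenin, had 701 ± 14.9 CPM (SD, n = 3) in TKO-2i, against 813 ± 6.53 in TKO-serum, and fell by 0.21 on the log2 scale (edgeR adjusted p = 0.0024). Gsk3b, a kinase that CHIR99021 inhibits, had 74.4 ± 7.83 CPM in TKO-2i, against 46.5 ± 2.27 in TKO-serum, with 0.68 as log2 fold change (edgeR adjusted p = 0.00011). Its paralog Gsk3a was not called (-0.04). Apc, a scaffold of the destruction complex, was not called at -0.11, but passed at -0.25 without TKO-2i replicate 2 (edgeR adjusted p = 0.0084). The co-receptor gene Lrp5 was higher (0.33) and Lrp6 not called (0.19), though Lrp6 passed at 0.27 with length-scaled TPM counts (edgeR adjusted p = 0.032). Of the Dishevelled genes, Dvl3 (0.68) and Dvl2 (0.25) were higher and Dvl1 (-0.06) was not called, and Dvl2 had -0.02 less the median of its chromosome. The calls for Lrp5 and Dvl2 were lost with limma on log2(TPM + 1), at 0.21 and 0.08.

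Changes of at least 2-fold were found for 10 of the 50, 3 higher and 7 lower, against 7.72% higher and 15.6% lower of all genes tested. Ror2, a receptor of Wnt5-type ligands, rose from the 10.3 ± 1.34 CPM (SD, n = 3) of TKO-serum to 38.9 ± 2.14 in TKO-2i, with 1.93 as log2 fold change (edgeR adjusted p = 8.1e-07). Its paralog Ror1 was lower, at 0.365 ± 0.0604 against 1.29 ± 0.0991 CPM (-1.80 on the log2 scale), so the pair divided as Wnt5b and Wnt5a did. Wls, which carries Wnt proteins to the cell surface for secretion, fell from the 2.67 ± 0.0612 CPM of TKO-serum to 0.783 ± 0.0831 in TKO-2i, with -1.77 as log2 fold change (edgeR adjusted p = 1.2e-05). Cthrc1, a secreted cofactor of Wnt and Frizzled binding, had a log2 fold change of -4.46, between -5.14 and -4.08 when a library was left out. Apc2 fell by 2.15, Dact1 and Dact3, which bind Dishevelled, by 1.81 and 1.27, and Kremen2 by 1.04. The inhibitor genes Wif1 (1.04) and Apcdd1 (1.04) were higher in TKO-2i on the log2 scale.

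Textbook targets of β-catenin outside the members also moved in both directions. Of 30 such genes 27 were tested, 11 called higher and 12 lower (85.2% in either direction, against 62.5% of all genes tested), with a median log2 fold change of 0.06 and a median absolute value of 0.88. T, the Brachyury gene of the primitive streak, had 12.2, 10.2 and 18.9 CPM in TKO-2i, against 0.337, 0.263 and 0.261 in the TKO-serum libraries, with 5.58 as log2 fold change (standard error 0.32, edgeR adjusted p = 1.7e-06). As for Sp5 and Lef1, TKO-2i replicate 3 was the highest of its condition. Cdx1 and Cdx2, caudal factors of the posterior embryo, had log2 fold changes of 7.85 and 4.28, and Eomes one of 2.81. Among pluripotency genes Tfcp2l1 (1.96) and Tbx3 (1.52) were higher by at least 2-fold. Lower by at least 2-fold with a mean of at least 1 CPM were Dll1 (-5.83), Id2 (-4.53), Ascl2 (-3.37), Fgf8 (-2.86) and Myc (-1.14). Id2 fell from 28.0 ± 1.57 CPM (SD, n = 3) to 1.21 ± 0.0681 CPM and Dll1, a Notch ligand, from 14.9 ± 0.560 CPM to 0.259 ± 0.0405 CPM.

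Markers of the labelled cells and of other cell types were read in the same libraries. Their counts of calls stand beside 31.9% higher and 30.6% lower among all genes tested. In bulk RNA, fewer cells of a type and less RNA per cell cannot be told apart. The 10 markers of embryonic stem cells were all tested, with 3 called higher and 4 lower, and Dppa5a the most abundant by TPM in both conditions. They summed to 5835, 5082 and 5454 CPM in the TKO-2i libraries and 5917, 5477 and 5598 CPM in the TKO-serum libraries. The 10 genes of the primitive streak and mesoderm summed to 34.9, 31.6 and 40.9 CPM in TKO-2i and 8.92, 8.87 and 8.88 CPM in TKO-serum, with 3 called higher (T, Eomes and Gsc) and 3 lower. By TPM the most abundant of them was T in TKO-2i and Hand1 in TKO-serum, and Msgn1 had at most 3 counts in every library. Primitive endoderm markers summed to 324, 285 and 316 CPM in TKO-2i and 331, 329 and 325 CPM in TKO-serum. Most of this sum was Sparc, which was not called, while 8 of the 10 genes were lower in TKO-2i, with Cubn at -6.93 and Dab2 at -4.35 on the log2 scale. Neural markers summed to 210.2, 186 and 199.8 CPM in TKO-2i and 273, 254 and 259.7 CPM in TKO-serum, led by Tubb3 in TPM, with 7 lower and 1 higher, and with Neurog2 and Dcx at 3 or fewer counts in every library. Pax6 had 3.54 ± 0.697 CPM in TKO-2i, against 19.6 ± 0.0656 in TKO-serum.

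The fibroblast list summed to 74.1, 61.6 and 68.3 CPM in TKO-2i and 56.2, 50.4 and 52.2 CPM in TKO-serum, led by Fbln1 in TPM, with 2 of 10 genes higher and 2 lower. Col3a1, Lum, Dcn and Postn were too low to be tested, with means of at most 0.241 CPM. The trophoblast list summed to 217, 184 and 209.9 CPM in TKO-2i and 113, 106 and 105 CPM in TKO-serum, with 4 of 10 genes higher and 5 lower. The higher sum was mainly that of Krt8 (means of 82.6 against 24.2 CPM), Tead4 (46.2 against 13.4) and Tfap2c (58.6 against 41.3). Krt7, Krt18, Ascl2, Hand1 and Gata3 were lower in TKO-2i. By TPM Krt8 led the trophoblast list in TKO-2i and Tfap2c in TKO-serum. The marker lists are not independent of the target list, which also holds Cdx2, Ascl2, T, Mixl1, Eomes, Tbx6, Msgn1, Nanog, Esrrb and Tdgf1. Foxa2 stands in both the streak and the endoderm list, and Hand1 in both the streak and the trophoblast list. The ligands and inhibitors that were lower in TKO-2i, among them Wnt5a, Wnt7b, Sfrp2 and Sfrp4, changed in the same direction as most endoderm and neural markers. The part of such cells in the results was not tested.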

How the data were processed

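The authors deposited, per library and mouse transcript, an estimated count of reads and a TPM value, the latter scaled for effective length and to a fixed sum. The quantifier and its index are not given in the sources used here, and the submitters' processing notes name mm10. Both were summed per gene with GENCODE M21, which matched 136100 of 136288 transcripts, and estimated counts were rounded. Genes passing filterByExpr were fitted once with edgeR 4.0.16 (TMM, quasi-likelihood test, condition only, Benjamini-Hochberg over 18177 genes), and calls used an adjusted p under 0.05. CPM are counts over TMM-scaled library sizes. Alternatives used DESeq2 1.42.0, limma 3.58.1 on TPM, other filters and left-out libraries. On simulated counts of 17772 genes the edgeR fit recovered 80 of 100 2-fold and 92 of 100 4-fold changes, with 13 false calls. Far fewer genes changed there than were called here, so the simulation does not gauge the calls in these data. Values in every library are given for members called with at least 2-fold change and a mean of 1 CPM in a condition, and for the feedback genes, Lgr genes and TCF/LEF factors tested. Genes of the pathway and target lists are named when called, 2-fold changed and at 1 CPM, with Ctnnb1, Apc and the Gsk3, Lrp and Dvl genes in any case. Single markers given with values, and the promoters printed, were chosen after their values were seen. Members and lists were chosen with earlier results of these data known. EffectiveLength, deposited by the authors, entered only the length-scaled counts.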

Additional observations from a re-analysis of the deposited data

How the results depend on the processing

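Members called higher numbered 16 with each count-based alternative except the replicate block (17) and left-out libraries (16 to 19), and 12 with limma on log2(TPM + 1) or log2(TPM + 0.1). Of all 18177 genes, 5804 were called higher in the main fit, 4209 and 4214 in these limma fits and 6444 with the replicate block. With left-out libraries 5134 to 6328 genes were called higher, of 18589 to 18804 tested. Members called lower numbered 16 to 20 over all alternatives and 18 to 20 over left-out libraries. Lower calls over all genes ranged from 4716 to 6380 and from 4984 to 6240 in these fits. Calls on other pathway genes ranged from 25 to 40 over all alternatives and from 31 to 40 when a library was left out, and calls on targets from 18 to 24 and from 21 to 23. Among all genes tested, calls ranged from 9804 to 12568 over all alternatives and from 10152 to 12568 when a library was left out. All 34 member calls were shared by DESeq2 and by each fit without a library, 33 with length-scaled TPM counts, 31 with at least 10 counts in every library and 30 and 29 in the limma fits. Members called with at least 2-fold change numbered 7 higher and 14 lower in the main fit, but 4 and 7 with limma on log2(TPM + 1), where low genes had smaller values (Wnt5b 2.57, Rnf43 0.88, Wnt11 0.82, Wnt3a 0.58, Wnt4 -0.27, Wnt5a -0.98). With log2(TPM + 0.1) they numbered 7 and 13, and with at least 10 counts in every library 7 and 11. When a block for the replicate number joined the model, 12539 genes were called in place of 11361, and Fzd4 passed at 0.30 and Lrp6 at 0.18. Same-numbered libraries deviated together with correlations of 0.242, 0.329 and 0.014 across genes. Whether equal numbers mark a shared culture or batch was not tested, and the main fit held condition only. Non-overlap held for 31 members with TPM in place of CPM, an alternative chosen after seeing the data. The share of all genes without overlap is given for CPM only, so no background stands beside this count. With CTTTGAT and CTTTGAA alone, 4 rather than 8 members had a promoter match. These are 10.5% and 21.1% of the members with a window, against 9.88% and 18.9% of all genes with one.

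Genes that changed sign were not called, or changed it only less the median of their chromosome. Fzd9, Notum and Nkd1 had their highest values, 0.14, 0.15 and 0.12, without TKO-2i replicate 2, and Dkk1 had its lowest value, -0.37, without TKO-2i replicate 1. Nkd1 had 0.00 with at least 10 counts in every library, -0.04 with length-scaled TPM counts, -0.07 and -0.11 with limma on log2(TPM + 1) and log2(TPM + 0.1), and -0.04 and -0.02 without TKO-2i replicate 1 and TKO-serum replicate 1. Fzd9 had -0.07 and -0.08 in the limma fits and -0.06 without TKO-2i replicate 1. Notum had -0.08 with length-scaled TPM counts, -0.17 in both limma fits and -0.02 without TKO-2i replicate 3. Dkk1 had 0.06 without TKO-serum replicate 3 and Gsk3a 0.00 without TKO-2i replicate 2. Less the median of their chromosome, Tcf7l1 had -0.05, Dvl2 -0.02, Wnt7a -0.27, Notum -0.22 and Lrp6 -0.22. The cause was not tested. Depth limits the 13 untested members, at most 20 counts in a library.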
